A study of Ovis aries with 18 samples.

Results

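A missense SNP replaces one base of a coding exon by another so that the codon specifies a different amino acid, whereas a synonymous SNP changes the base but not the amino acid. The SNPs described here were the 4794 autosomal positions whose only consequence in the deposited table was missense variant. They lay in 2393 genes and were part of 24355 SNPs listed in all. Another 37 missense SNPs on chromosome X, and 260 autosomal SNPs for which missense was 1 of several terms, were not members. Synonymous autosomal SNPs, of which there were 13747, served as the comparison.

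All 18 samples were perirenal adipose tissue of untreated wild type, pure bred merino fetuses at day 132 of gestation, 1 library for each animal. Of these singleton fetuses 16 were labelled female and 2 male, and they shared a sire while the ewes, fed to maintenance, were unrelated. There was therefore a single condition, and every comparison below is between alleles, SNPs or genes within the same animals. RNA-Seq reads over each SNP had been counted separately for each allele, and each animal's genotype had been called from these same reads.

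In a heterozygous animal the transcripts of both copies of a gene are made in the same cells, so that the fraction of reads that carry the reference base, termed the reference share, measures their relative abundance, and an unequal share is termed allelic imbalance (AI). Because a missense allele is both a marker of its chromosome and a change of the protein, AI at such a SNP concerns the relative amounts of mRNA that encode the protein forms, as far as reads of both alleles are counted alike. Perirenal fat of the fetal lamb is largely brown fat, which burns lipid in mitochondria uncoupled by UCP1 and serves heat production at birth. Reads at SNPs of UCP1, CIDEA, ADIPOQ and PLIN1, which mark brown fat and adipocytes, were present in every animal, as were reads at SNPs of the endothelial gene VWF, while the table listed no SNP of the other chosen markers, which were FABP4, LPL and PPARG of adipocytes, PECAM1 of endothelium, and those of leukocytes, muscle and erythroid cells. The reads counted at missense SNPs ran from 513742 in RS902 to 903871 in RS917, with a median of 757752, and the median depth at heterozygous missense SNPs was 40 to 70 reads. No library looked like a copy of another, since at most 65.1% of missense genotype calls were the same in any of the 153 pairs of animals.

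For 1344 of the 2393 genes, or 56.2%, a single missense SNP was listed, while 109 genes had more than 5. Over the autosomes there were 0.349 missense SNPs for each synonymous SNP, and 1884 genes had SNPs of both classes. Missense SNPs were more often heterozygous. The mean over animals was 56.2% of missense SNPs called heterozygous compared with 51.7% of synonymous SNPs, a difference of 4.44 percentage points ± 0.760 (SD, n = 18), which was positive in all 18 animals. Homozygosity for the alternate allele was less frequent, at 14.5% compared with 16.3%, and lower in all 18 animals. The widest gap between the classes was at SNPs called heterozygous in every fetus. Of the missense SNPs, 531 (11.1%) were called heterozygous in all 18 animals, whereas 366 (2.66%) of the synonymous SNPs were. Such SNPs enter the percentages of every animal alike. The equal sign in all 18 animals is therefore in part set by them and is not 18 separate observations. The difference without them was not computed. These 531 SNPs lay in 230 genes, and 337 of them were in just 75 genes that held 3 or more each.

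**Figure D1:**
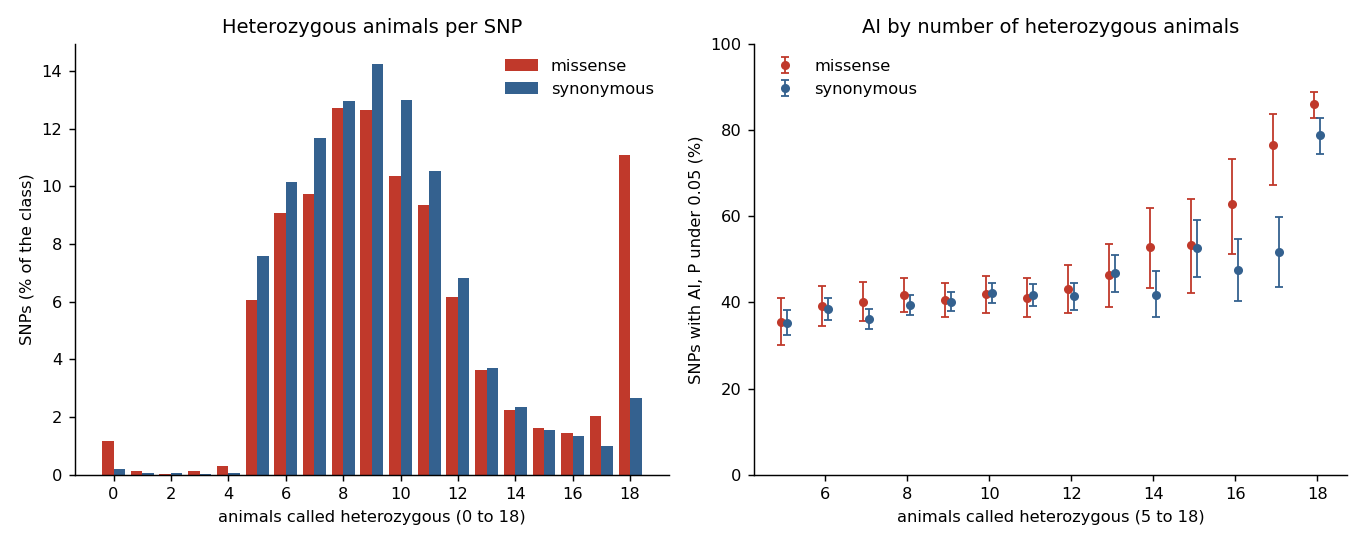
Left, the percentage of missense (red) and synonymous (blue) SNPs by the number of animals called heterozygous. Right, the percentage of SNPs with AI (unadjusted P-value under 0.05) with 95% Wilson intervals. The classes run close together from 5 to 13 heterozygous animals, and the bar at 18 animals stands at 11.1% of missense and 2.66% of synonymous SNPs.

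The first question was how many missense SNPs showed AI. With the likelihood ratio test on reads summed over heterozygous animals, 2256 of 4737 missense SNPs with at least 1 heterozygous animal had an unadjusted P-value under 0.05. This is 47.6% (95% Wilson interval 46.2% to 49.0%), where 45.0% of all tested SNPs in the table passed. Among synonymous SNPs the percentage was 41.4% (40.6% to 42.2%). Only counting error enters these intervals, and SNPs within a gene share animals and often reads. After Benjamini-Hochberg adjustment over all SNPs, the number of missense SNPs under 0.05 was 1944, or 41.0% compared with 38.0% of all SNPs. When the spread between heterozygous animals was added to the error by a moderated quasi-binomial F test, 1788 missense SNPs had an unadjusted P-value under 0.05, all of them among the 2256, and this was 37.7% compared with 34.4% of all SNPs. With that test and adjustment together there were 1367, or 28.9% compared with 24.5% of all SNPs.

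The reference allele was the more abundant at 1671 of these 2256 missense SNPs, and the alternate allele at the other 585, where 33.8% of all tested SNPs had AI with the reference allele higher and 11.1% with the alternate allele higher. That is 74.1% toward the reference allele, compared with 75.7% for synonymous SNPs. The median share over all tested SNPs of the table was 0.519 instead of 0.5, and when this median was taken as the equal share, 2128 missense SNPs had AI, of which 1184 (55.6%) lay above it and 944 below. The median reference share was 0.520 at missense and 0.517 at synonymous SNPs. Large departures were more frequent at missense SNPs. AI with a share more than 0.1 from 0.5 was found at 16.7% of tested missense SNPs and 8.15% of synonymous SNPs.

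The percentage of missense SNPs with AI varied with the number of heterozygous fetuses. At the 3932 missense SNPs heterozygous in 5 to 14 animals, 82.0% of the class, AI was found at 41.1% (39.6% to 42.7%), and at 39.8% (39.0% to 40.7%) of the 12789 synonymous SNPs of this kind, so that the intervals overlapped. The median shares were 0.517 and 0.516. At SNPs heterozygous in 15 to 17 animals AI was found at 65.3% of 245 missense and 50.7% of 535 synonymous SNPs. At those heterozygous in all 18 animals it was found at 457 of 531 missense SNPs, or 86.1% (82.9% to 88.8%), and at 79.0% (74.5% to 82.8%) of synonymous SNPs, with median shares of 0.599 and 0.557.

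Missense SNPs heterozygous in all 18 animals were also unlike the others in sequence context. Transitions, the changes between A and G or between C and T, made up 72.2% of missense SNPs heterozygous in 5 to 14 animals but 34.7% of those heterozygous in all 18 (86.9% and 56.3% for synonymous SNPs). Another listed SNP lay within 2 bp of 4.63% of the former and 62.5% of the latter (0.891% and 33.6% for synonymous SNPs). In animals called homozygous with at least 20 reads, the allele that the call excludes held more than 2% of the reads at 1.98% of missense SNPs heterozygous in 5 to 14 animals and at 36.0% of those heterozygous in 15 to 17. At SNPs heterozygous in all 18 animals no homozygous animal was left to measure this. Spacing moved with AI within each band. Among missense SNPs heterozygous in all 18 animals, AI was found at 89.2% of the 455 with another SNP within 50 bp and at 67.1% of the 76 without. In the band of 5 to 14 animals the values were 45.9% of 1262 and 38.9% of 2670, and the synonymous SNPs of the band without such a neighbour showed AI at 38.4%. The part that read mapping or reads of similar genes played in these differences was not tested.

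To compare the classes within genes, each missense SNP was set against the synonymous SNPs of the same gene with the same number of heterozygous animals. Neither the animals that were heterozygous nor the allele frequency was matched. A match existed for 2517 missense SNPs in 1270 genes, with 3300 synonymous SNPs, and each animal gave 1 value over 1276 to 1444 missense SNPs heterozygous in it. The mean reference share was 0.537 at missense SNPs and 0.534 at matched synonymous SNPs. The difference of 0.00268 ± 0.00363 (SD, n = 18) was positive in 13 of 18 animals (two-sided sign-flip permutation test, adjusted P = 0.00663 over 4 tests). The departure from an equal share, with counting error removed, was 0.120 and 0.116, a difference of 0.00470 ± 0.00334, positive in 17 of 18 animals (same permutation test, adjusted P = 8e-05). Missense SNPs had fewer reads. The log2 depth was lower by 0.0369 ± 0.0110, in all 18 animals (same permutation test, adjusted P = 4e-05). In homozygous animals the percentage of reads with the uncalled allele was 0.177 at missense and 0.193 at matched synonymous SNPs, lower in 14 of 18 animals (same permutation test, adjusted P = 0.00992). The percentage with AI was 49.2% of these missense SNPs and 47.3% of their matches, for which no test was made. This gap of 1.93 percentage points was 0.188 without RS937 and -0.480 with partners of identical genotype. These P-values measure the spread between fetuses of the same sire that carry the same SNPs, and not the spread between SNPs.

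These differences were also computed within parts of the SNPs. When those heterozygous in 15 or more animals were left out, the difference in reference share was 0.000240 (95% interval over animals from -0.00162 to 0.00210, permutation test, adjusted P = 0.846), and that in departure was -0.000295 (-0.00342 to 0.00283), whereas the lower depth remained, at -0.0420 on the log2 scale in all 18 animals. Among the 326 matched missense SNPs heterozygous in all 18 animals, a subset chosen after the data were seen, the mean reference share was 0.585 compared with 0.572 at matched synonymous SNPs, a difference of 0.0138 ± 0.00822 that was positive in 16 of 18 animals. Without any SNP that had another within 50 bp, the difference in departure was 0.00139 (-0.00250 to 0.00527, permutation test, adjusted P = 0.517). Over all alternatives run the adjusted P-values ranged from 1e-05, the smallest the resampling can give, to 0.846 for both share and departure. Whether the parts differ from each other was not tested.

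**Figure D2:**
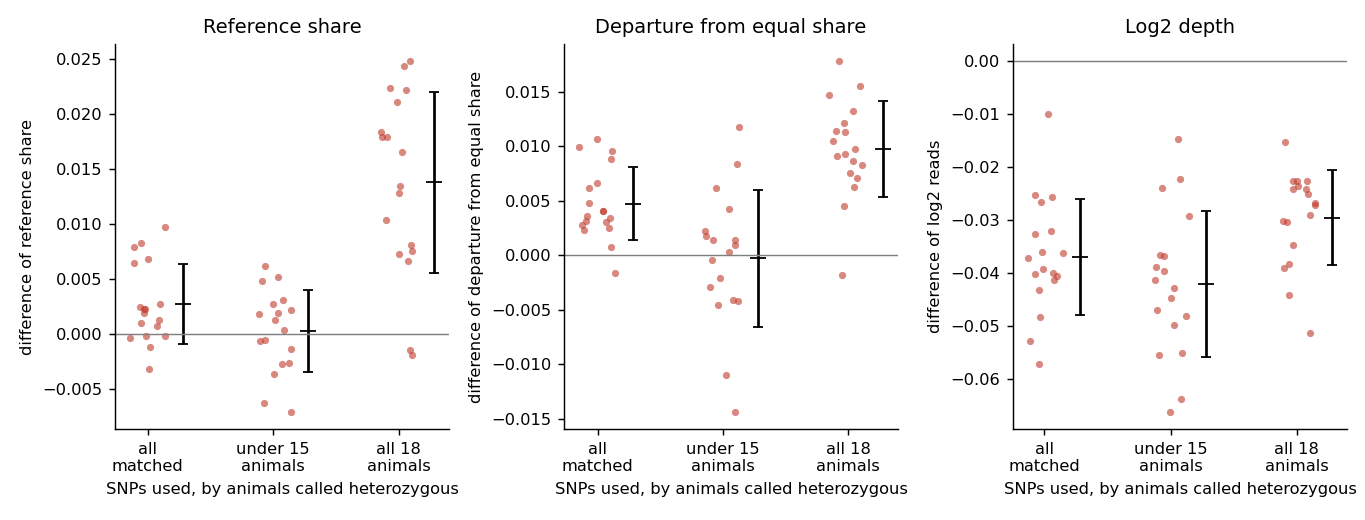
Missense minus matched synonymous value in each of the 18 animals (red points, 1 for each animal) for reference share, departure from equal share and log2 depth, over all matched SNPs, those heterozygous in under 15 animals and those heterozygous in all 18. Black bars give the mean and SD, and the grey line marks no difference. Log2 depth lies below 0 in every animal in all 3 sets, while share and departure scatter around 0 for SNPs heterozygous in under 15 animals.

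A missense and a synonymous SNP of the same gene called alike in all 18 animals may mark the same chromosomes, and their shares can then be set side by side. There were 3955 such pairs. AI was found at both SNPs in 1488 pairs, at the missense SNP alone in 534, at the synonymous SNP alone in 610 and at neither in 1323. Where both showed AI the same allele class, reference or alternate, was the higher in 87.0% of pairs. Among all SNPs with AI the reference allele was higher at 74.1% of missense and 75.7% of synonymous SNPs. Part of this agreement would therefore arise between unrelated SNPs. Across the 3010 pairs heterozygous in 5 to 14 animals the shares differed by a median of 0.0276, with Pearson's r of 0.663 across pairs. Pairs of a gene recur and neighbours share reads, so that these are descriptions and not tests. In the 631 pairs within 100 bp of each other, which 1 read can span, r was 0.853, and in the 1611 pairs more than 1000 bp apart it was 0.566. Across the 160 pairs heterozygous in 15 to 17 animals r was 0.922 and the median difference 0.0202. Across the 783 pairs heterozygous in all 18 animals r was 0.394, the median difference of the shares was 0.0541 and the median distance was 11 bp. With no homozygous animal at these SNPs, the calls do not show whether the reference bases of a pair lie on the same chromosome. Where they lie on different ones, reference shares would differ even if the imbalance were equal.

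**Figure D3:**
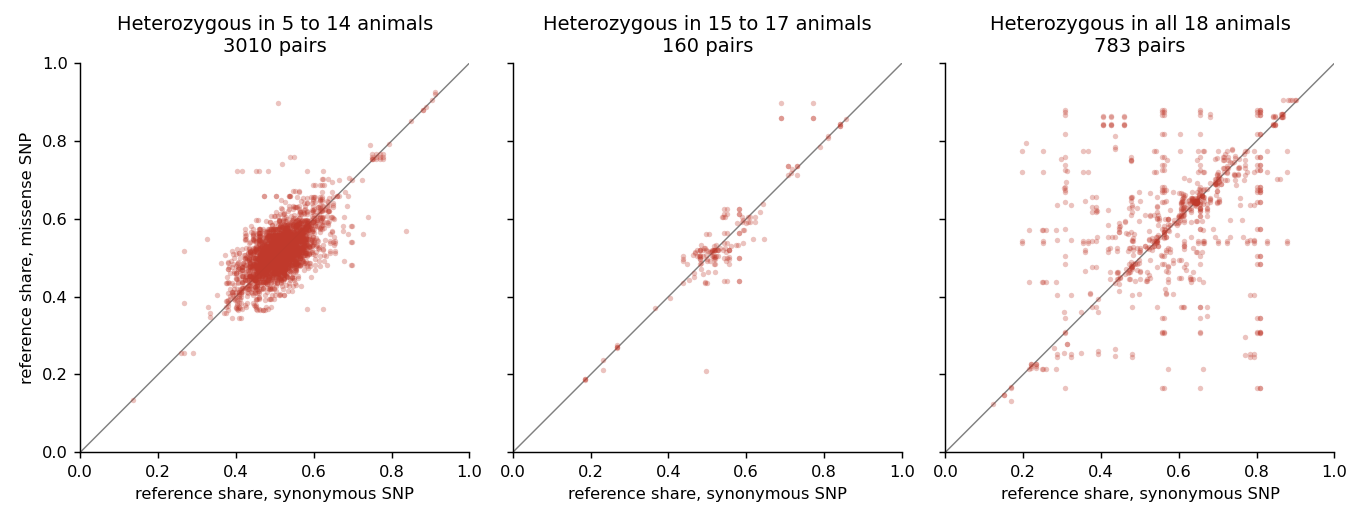
Reference share of the missense SNP (vertical) against that of a synonymous SNP of the same gene with the same genotype call in every animal (horizontal), by the number of heterozygous animals. Each point is 1 pair and the line marks equal shares. The 3010 pairs of the left panel form a cloud around the line near 0.5, whereas the 783 pairs heterozygous in all 18 animals scatter over most of the plane.

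The missense SNPs that differed most from such a partner were mostly of this kind. Of the 10 largest differences, 1 for each gene, 9 were at SNPs heterozygous in all 18 animals with another SNP 1 to 5 bp away, and they are described without a test because they were chosen for the difference. In TRPC4AP (chromosome 13, position 63863508, G to T) the missense share was 0.796 and that of the synonymous SNP 1 bp away was 0.208. CREBBP, a histone acetyltransferase, had 0.723 and 0.313 at SNPs 2 bp apart, and SF3B2, a splicing factor subunit, had 0.679 and 0.305 at SNPs 5 bp apart. In all 3 genes the missense share exceeded the synonymous share in 18 of 18 animals, at positions that the same reads cover. The synonymous SNP leaned toward the alternate allele about as far as the missense SNP toward the reference allele. Equal imbalance with the reference bases on different chromosomes would give such mirrored shares. This was not tested. Shares were also nearly mirrored in NFKB (0.694 and 0.309), PHLDA1 (0.249 and 0.769) and ANKRD11 (0.349 and 0.673). They were less so in GAK (0.813 and 0.436) and, against several partners, OAS2 (0.166 and 0.642) and GSTP1 (0.244 and 0.533). The exception among the 10 was MAP4, which codes for a microtubule-associated protein and was heterozygous in only 5 animals.

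MAP4 was also the most unequal of the missense SNPs that met stricter conditions. These were heterozygosity in 5 to 14 animals, an adjusted P-value under 0.05, the same allele higher in every heterozygous animal with at least 10 reads, and under 2% of reads of the uncalled allele in homozygous animals. The conditions were met by 418 missense SNPs in 335 genes, which is 10.6% of missense SNPs in this band, and by 1308 synonymous SNPs, which is 10.2% of theirs. The reference allele was higher at 319 of the 418. Some 177 of them had a synonymous partner with the same genotypes in 383 pairs, and the partner showed AI toward the same allele class in 284 pairs (74.2%), toward the other in 5 and no AI in 94. Taking only partners more than 1000 bp away, the counts were 131, 2 and 60 of 193 pairs. Most SNPs with AI in both classes leaned toward the reference allele, so some agreement would arise between unrelated SNPs too.

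The 10 most unequal of these SNPs, with 1 for each gene, are given by their values alone. Whether reference bases of SNPs in a gene lie on the same chromosome was not determined. Shares on opposite sides of 0.5 within a gene therefore need not mean opposite imbalance. At MAP4 (chromosome 19, position 51794111, A to G) the shares were 0.836 in RS905, 0.911 in RS920, 0.920 in RS929, 0.914 in RS940 and 0.892 in RS969. All 5 animals were thus far toward the reference allele, yet the synonymous SNP 115 bp away with the same genotypes had a share of 0.508. PHLDA1, a pleckstrin homology-like domain protein, had shares of 0.851 in RS902, 0.862 in RS920, 0.828 in RS930, 0.861 in RS933 and 0.833 in RS937 (chromosome 3, position 111905870, C to G). Here the 3 synonymous SNPs of the gene also showed AI, with a median share of 0.769. GPIHBP1 carries lipoprotein lipase to the capillary wall, where the enzyme releases fatty acids for fat cells. Its SNP at position 14293893 of chromosome 9 (C to A) was heterozygous in 14 animals with a lowest share of 0.743, a median of 0.839 and a highest of 0.921, and the gene's 4 synonymous SNPs, all with AI, had a median of 0.588.

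PAF1 and WDR61 code for subunits of the same transcription elongation complex. At PAF1 (chromosome 14, position 48251597, T to C) the 12 heterozygous animals ranged from 0.681 to 0.907 with a median of 0.800, while neither of 2 synonymous SNPs of the gene showed AI. WDR61 (chromosome 3, position 82244494, C to T) went the other way, with a range of 0.148 to 0.355 in 10 animals and a median of 0.195, and it had no synonymous SNP. C1orf167, an open reading frame of unknown function, was the other gene of the 10 with the alternate allele higher. Its shares were 0.226 in RS910, 0.258 in RS905, 0.125 in RS926, 0.0917 in RS933 and 0.112 in RS947, while its 4 synonymous SNPs had a median of 0.721.

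SLC22A4, an organic cation transporter, had a missense SNP (chromosome 5, position 19649665, A to G) with a lowest share of 0.538, a median of 0.778 and a highest of 0.919 over 9 animals. Its 4 synonymous SNPs with the same number of heterozygous animals had a median of 0.289, toward the alternate allele. LRPAP1, a chaperone of lipoprotein receptors, had 9 shares from 0.571 to 0.821 with a median of 0.795 (chromosome 6, position 114765514, C to T), and the next lowest after RS919 was 0.762. The remaining SNPs were in the complement gene C4, with 0.782 to 0.893 in 5 animals, and in TNXB, which codes for the matrix protein tenascin X, with 0.597 to 0.914 in 8 animals. Both genes lie in the major histocompatibility region of chromosome 20, and complement C4 has near-identical copies in ruminants, between which these counts cannot decide.

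**Figure D4:**
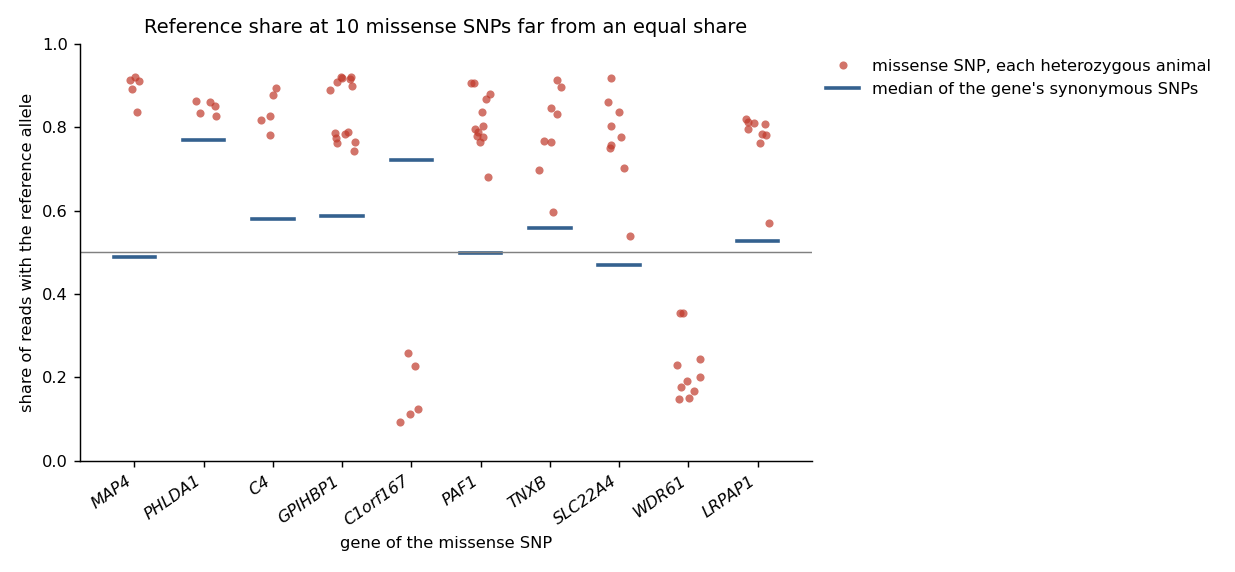
Share of reads with the reference allele in each heterozygous animal (red points) at the 10 most unequal missense SNPs that met the stricter conditions, with the median of the gene's synonymous SNPs as a blue line and 0.5 as a grey line. WDR61 had no synonymous SNP. In MAP4 the 5 animals lie between 0.836 and 0.920 while the line of its synonymous SNPs is at 0.489.

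Among genes of brown fat and adipocyte lipid metabolism, 20 of 42 genes in the table held 53 missense SNPs. Of the 52 that could be tested 35 had an unadjusted P-value under 0.05, 27 with the reference and 8 with the alternate allele higher, where 45.0% of all SNPs passed. The list had a median of 282 reads per heterozygous animal, compared with 59.4 for all missense SNPs, and the median distance from an equal share was 0.0346, compared with 0.0382. Synonymous SNPs of the same list showed AI at 70%, compared with 67.3% of its missense SNPs, and among SNPs heterozygous in under 15 animals the values were 69.8% and 58.5%. With the spread between animals included, 16 of the 52 in 10 genes had an adjusted P-value under 0.05, or 30.8% compared with 24.5% of all SNPs. Adjusted P-values in the next paragraphs are those of this quasi-binomial test, adjusted over all SNPs.

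UCP1, the uncoupling protein of brown fat, had 3 missense SNPs on chromosome 17, read at 5153 to 16008 reads in each heterozygous animal. At position 16848638 (G to A) the shares of 7 animals ran from 0.477 to 0.575 with a median of 0.514, and the reference allele was higher in 5. The reads summed over animals gave a share of 0.523 and an adjusted likelihood ratio P of 8.97e-20, but with the spread between animals the adjusted P was 0.0901. At position 16853669 the 10 shares ran from 0.428 to 0.567 (adjusted P = 0.669), and at 16847694 the 7 shares ran from 0.478 to 0.543 (adjusted P = 0.756). Animals at these SNPs thus lay on both sides of 0.5, with a variance 18.9 to 59.3 times that of counting alone. ADIPOQ codes for adiponectin, a hormone of fat cells, and had 4 missense SNPs. The SNP at position 198631186 of chromosome 1 (T to C) had a reference share of 0.571 to 0.685 in 9 animals with a median of 0.627 (adjusted P = 2.81e-05), and its neighbour at 198631195 had 0.391 to 0.615 with a median of 0.480 (adjusted P = 0.935). The deepest ADIPOQ missense SNP, at 198620136 with 12477 to 19079 reads for each animal, had shares of 0.498 to 0.523 in 6 animals (adjusted P = 0.00585). The fourth, at 198621510 with 10260 to 16399 reads, had 0.454 to 0.523 in 9 animals (adjusted P = 0.307).

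Several enzymes of fatty acid oxidation had missense SNPs with the reference allele higher in every heterozygous animal. HADHA, a subunit of the mitochondrial trifunctional protein, had shares from 0.521 to 0.593 with a median of 0.552 in 9 animals (chromosome 3, position 33314015, A to T, adjusted P = 1.72e-07). ETFDH, which passes electrons from fatty acid oxidation to ubiquinone, had 0.540 to 0.587 with a median of 0.568 in 11 animals (chromosome 17, position 40084811, C to G, adjusted P = 4.76e-10). The acyl-CoA dehydrogenase gene ACADL had 0.515 to 0.630 with a median of 0.564 in 5 animals at position 210797541 of chromosome 2 (adjusted P = 0.00655), while at its other missense SNP, with 0.429 to 0.533 in 7 animals, the adjusted P was 0.940. The median share of synonymous SNPs was 0.528 in HADHA (1 SNP), 0.510 in ETFDH (10 SNPs) and 0.548 in ACADL (1 SNP). AI was found at 1, 9 and 1 of them. No missense SNP passed in CPT1A and CPT2, which carry fatty acids into mitochondria, or in HADH, whose 6 shares were all between 0.484 and 0.512 (adjusted P = 0.913).

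Of signalling genes, ADRB3, the beta-3 adrenergic receptor through which noradrenaline drives lipolysis, had a reference share above 0.5 in all 14 heterozygous animals. The lowest was 0.529, the median 0.595 and the highest 0.764 (chromosome 26, position 31850726, A to G, adjusted P = 7.28e-05). The 4 synonymous SNPs of ADRB3 had shares of 0.502 to 0.528 with a median of 0.516, and 1 of them showed AI. DIO2, the deiodinase that activates thyroid hormone in brown fat, had 3 missense SNPs with shares on both sides of 0.5 and adjusted P-values from 0.496 to 0.992. At LEP, which codes for leptin, the alternate allele was higher in 6 of 7 animals at position 92519827 of chromosome 4, with shares from 0.321 to 0.547 and a median of 0.421 (adjusted P = 0.0464). A second LEP SNP 3 bp away had shares from 0.327 to 0.552 in 6 animals (adjusted P = 0.230). The third, at 92521859, had 0.337 to 0.569 in 8 animals, with the alternate allele higher in 7 (adjusted P = 0.377).

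Genes of lipid synthesis and droplets differed among their own SNPs. GPAM, which starts triglyceride synthesis, had shares of 0.539 to 0.663 with a median of 0.590 in 10 animals at position 31659967 of chromosome 22 (adjusted P = 4.61e-07), and 0.453 to 0.518 in 6 animals at 31638516 (adjusted P = 0.165). In PLIN3, a lipid droplet coat protein, SNPs 21 bp apart at 16881833 and 16881854 of chromosome 5 had medians of 0.571 and 0.558 and were above 0.5 in all 8 animals each. The PLIN3 SNP at 16895568 was heterozygous in 16 animals with shares of 0.0781 to 0.5, a median of 0.310 and 6.16% of reads of the uncalled allele in homozygous animals. PLIN4, another coat protein of the droplet, had 3 missense SNPs at 17196975, 17196976 and 17196981 that were heterozygous in 17 animals with medians of 0.876, 0.875 and 0.912, while the SNP at 17197232 had a median of 0.503 in 12 animals. Fatty acid synthase, FASN, had 8 missense SNPs, of which 7 lay between positions 49953283 and 49953295 of chromosome 11. All 7 were called heterozygous in all 18 animals at 4 to 62 reads, their shares ran from 0.167 to 0.875, and their adjusted P-values were 0.0707 to 0.305.

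Subunits of oxidative phosphorylation had 23 missense SNPs in 18 genes, and all 14 with AI, of 20 tested, had the reference allele higher, where 33.8% of all SNPs had AI in that direction. That is 70% of the missense SNPs, compared with 82.1% of the synonymous SNPs of these genes, and among SNPs heterozygous in under 15 animals the values were 66.7% and 79.4%. The missense SNPs of this list had a median of 942 reads per heterozygous animal, compared with 59.4 for all missense SNPs. Their median distance from an equal share was 0.0253, compared with 0.0382. With the spread between animals included, 10 of the 20, in 7 genes, had an adjusted P-value under 0.05, where 24.5% of all SNPs did. SDHB, the iron-sulphur subunit of succinate dehydrogenase, had shares of 0.935 in RS910, 0.927 in RS918, 0.937 in RS926, 0.938 in RS933, 0.939 in RS940 and 0.940 in RS943 (chromosome 2, position 248384537, A to C). The 6 animals lay close together, and in the 12 homozygous animals 5.18% of reads had the uncalled allele. NDUFS8, a subunit of complex I, had shares of 0.528 to 0.581 in all 18 animals. Among mitochondrial carriers, the phosphate carrier SLC25A3 had shares of 0.1003 in RS910, 0.108 in RS903, 0.0923 in RS919, 0.0873 in RS930 and 0.0947 in RS953, with 6.32% of reads of the uncalled allele in homozygous animals. At SDHB and SLC25A3 the lesser allele thus held a small part of the reads in every heterozygous animal.

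Protein classes differed in how many missense SNPs they held. Ribosomal proteins had 3 missense and 47 synonymous SNPs (0.0638 for each synonymous SNP), and proteasome subunits 5 and 52 (0.0962), where the ratio over the autosomes was 0.349. Of the 3 ribosomal missense SNPs only that of RPS27A, which codes for a fusion of ubiquitin with a ribosomal protein, had heterozygous animals. Its 9 shares were 0.732 to 0.782 with a median of 0.753. All 3 proteasome SNPs with AI were in PSMB4, a subunit of the core particle, with the alternate allele higher; at position 100246889 of chromosome 1 the 15 shares ran from 0.429 to 0.477, and the synonymous SNP of the gene had 0.465. Interferon and innate immune genes had 74 missense and 98 synonymous SNPs (0.755), and zinc finger genes named ZNF had 90 and 154 (0.584). The innate immune gene OAS2 alone held 29 of the 74 and 12 of the 98.

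In interferon and innate immune genes AI was found at 51 of 73 tested missense SNPs, in extracellular matrix genes at 72 of 113, in solute carriers at 27 of 55 and in ZNF genes at 45 of 89, where 45.0% of all SNPs passed. Some of these SNPs were heterozygous in 15 or more animals, namely 26 of 74 innate immune, 18 of 117 matrix, 6 of 56 carrier and 23 of 90 ZNF SNPs, where 16.2% of all missense SNPs were. OAS2 alone held 26 of the 51 innate immune SNPs with AI and 25 of the 26 heterozygous in 15 or more animals. Among SNPs heterozygous in under 15 animals AI was found at 57.4%, 60%, 44.9% and 39.4%, compared with 56.5%, 52.7%, 34.97% and 23.8% of the synonymous SNPs of the same genes. In the matrix the missense SNPs with the smallest P-values were at positions 243838658 and 243838590 of chromosome 2 in HSPG2, the basement membrane proteoglycan perlecan, with median shares of 0.905 in 18 animals and 0.902 in 17.

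The 10 genes with the most missense SNPs differed in their shares, and the counts with AI below stand beside 45.0% of all SNPs. OAS2, an interferon-induced enzyme that senses double-stranded RNA, led with 29 missense SNPs in 2831 bp of chromosome 17. Of these 25 were heterozygous in 15 or more animals, 26 showed AI and all 29 had another SNP within 50 bp. Their shares ran from 0.166 to 0.911 in the same animals. CCBL1, which makes kynurenic acid, had 14 missense SNPs that all showed AI toward the reference allele, with shares of 0.651 to 0.887 and a median of 0.859. The median of its 11 synonymous SNPs was 0.858, and 5 of the missense SNPs were heterozygous in all 18 animals. CYP2B6, a cytochrome P450 of xenobiotic metabolism, also had AI at all 14 missense SNPs, but 6 toward the reference and 8 toward the alternate allele, with shares of 0.214 to 0.800. None of them was heterozygous in all 18 animals, and the median variance between animals was 26.6 times that of counting.

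In STARD9, NBAS and FAT1 the shares lay nearer to 0.5. STARD9, a kinesin, had AI at 3 of 17 with a median share of 0.519, NBAS, of the Golgi to endoplasmic reticulum traffic, at 2 of 16 with a median of 0.509, and FAT1, an atypical cadherin, at 4 of 15 with a median of 0.498. APOL6 had AI at 5 of 12 and a median of 0.520. CD97, an adhesion receptor, had 25 missense SNPs with AI at 14 and a median of 0.536, and ERAP1, which trims peptides for presentation, had AI at 9 of 13, of which 4 were toward the reference and 5 toward the alternate allele. In C4 the 13 missense SNPs had a median of 0.879 and the synonymous SNPs one of 0.581.

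**Figure D5:**
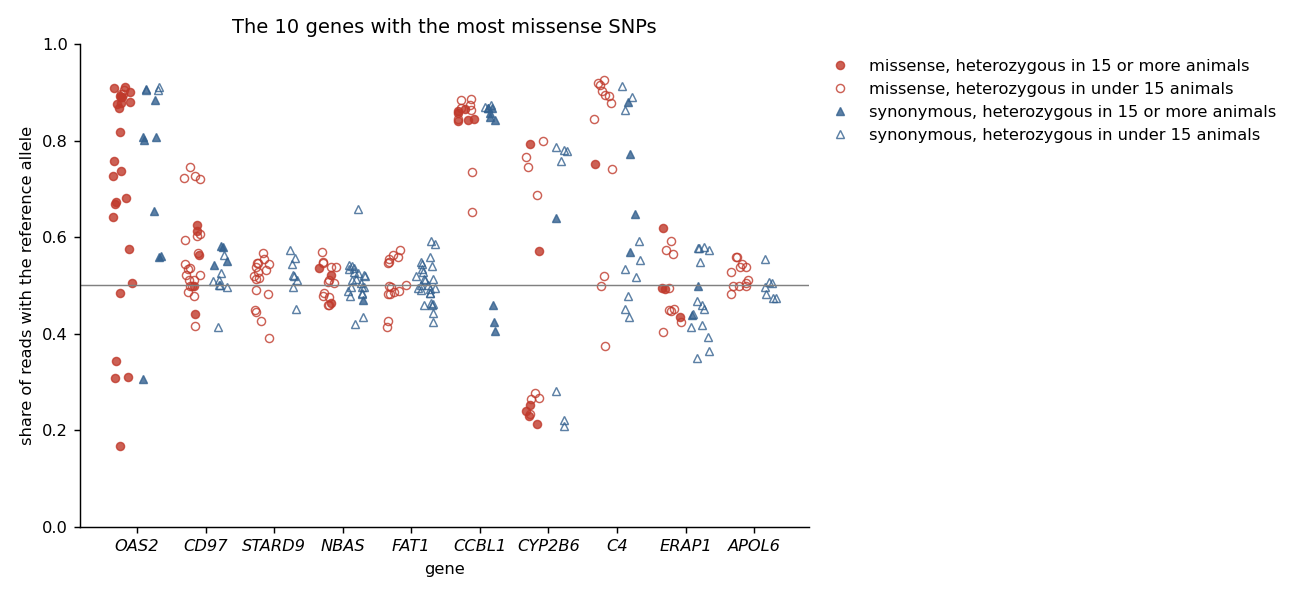
Share of reads with the reference allele, summed over heterozygous animals, at each missense (red circles) and synonymous (blue triangles) SNP of the 10 genes with the most missense SNPs. Filled symbols mark SNPs heterozygous in 15 or more animals. OAS2 spans 0.166 to 0.911 with mostly filled symbols, whereas STARD9, NBAS, FAT1 and APOL6 stay near 0.5 with mostly open ones.

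The 5 missense SNPs with the most reads summed over heterozygous animals were in FTH1, the heavy chain of the iron store ferritin, within positions 31523943 to 31523952 of chromosome 3. All 18 animals were called heterozygous at each, with shares of 0.638, 0.765, 0.768, 0.777 and 0.788 over reads summed, and the animals differed by an SD of 0.00958 to 0.0115. FTH1 had 8 missense SNPs and no synonymous SNP in the table, and ferritin genes are known to have processed copies in mammalian genomes, whose reads these counts cannot tell apart.

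RNA editing changes A to G in transcripts, which appears as A to G or T to C depending on the strand, and with genotypes called from RNA an edited site and a SNP cannot be told apart. Of known targets of editing that changes the protein, 5 genes held 10 missense SNPs and AI was found at 8, where 45.0% of all SNPs passed. Only the SNPs of BLCAP, COPA and SON given below were A to G or T to C changes, so these counts are not of editing sites alone. Of those given below, all but that of SON showed AI. With the spread between animals included, 5 of the 10 had an adjusted P-value under 0.05, where 24.5% of all SNPs did. BLCAP had 3, all T to C, with shares of 0.884 in 14 animals, 0.907 in 11 and 0.802 in 18, and in homozygous animals the uncalled allele held 6.37% and 6.02% of reads at the first 2. COPA (T to C, position 109669349 of chromosome 1) was called heterozygous in all 18 animals with a lowest share of 0.340, a median of 0.447 and a highest of 0.520, and the alternate allele was higher in 16 animals. SON (A to G) had a share of 0.461 over 5 animals and did not pass (likelihood ratio test, adjusted P = 0.118).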

How the data were processed

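The authors mapped paired end 100 bp reads with STAR to Oar v3.1 (up to 10 mismatches, unique positions only) and called SNPs and genotypes with GATK 3.4-46, per the submitters' processing notes and the study's methods. They kept SNPs in ENSEMBL genes, outside simple repeats, at which both alleles reached 10 reads in 5 samples or more. The deposited table holds, without normalization, the read counts of the reference and alternate allele and the genotype call in each animal. Its columns with the authors' own test values (a statistic, a P-value, the higher allele and the proportion of reads to the reference) were not used. Alignment to a single reference favours reads with its allele, and the genotype calls come from the counted reads themselves. One animal has the prefix PS in the columns and RS in its label and was taken as RS910. Amino acid changes and sequence around the SNPs were not analysed here. The members and gene lists were chosen with earlier results of these data known.

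AI was tested on reads summed over animals called heterozygous (statistic 2 times the log likelihood ratio, 1 degree of freedom), and by a moderated quasi-binomial F test (limma 3.58.1, R 4.3.3) that takes the spread between animals. Matched comparisons used the 18 animals as replicates (sign-flip permutation test, 100000 resamples, smallest P 1e-05, Benjamini-Hochberg adjusted over 4 tests). Departure is 0.5 times the square root of the mean of ((r - a) squared - n)/(n(n - 1)) for r reference, a alternate and n reads. Shares of single SNPs are of summed reads, and ranges are over heterozygous animals. Intervals are 95% Wilson, or from the SD between animals. The likelihood ratio test and the permutation test (for share and departure) were checked on simulated reads that held counting error alone. The quasi-binomial test was not checked in this way. Alternatives were the matching, spacing, minimum reads, threshold, down-sampling to 50 reads and leaving out each animal. Named SNPs were the 10 most unequal consistent ones, the 10 most unlike a partner, the 5 deepest, the 2 with the smallest P-value in each list, and all missense SNPs of the brown fat list, the last added after values were seen.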

Additional observations from a re-analysis of the deposited data

Results flagged for a closer look

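Among the SNPs described, 54 had 4 to 10 heterozygous animals and were checked for an animal standing apart by Dixon's criterion, which flags about 1 in 20 groups by chance. It was met at 4 SNPs. At LRPAP1 (position 114765514) RS919 had a reference share of 0.571 while the other 8 animals were at 0.762 to 0.821. At SDHB (position 248384537) RS918 had 0.927 and the others 0.935 to 0.940. At VWF, the endothelial von Willebrand factor (position 208242329), RS903 had 0.364, compared with a median of 0.503 over 9 animals. At PLIN3 (position 16895670) RS920 had 0.628, compared with a median of 0.510 over 8 animals.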

How the results depend on the processing

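The lower depth of missense SNPs kept its direction and its side of the threshold under all alternatives run, and no result changed its side when any 1 animal was left out. Leaving out each animal gave ranges of 0.00227 to 0.00303 for the difference in reference share, 0.00435 to 0.00508 for departure, -0.0385 to -0.0357 for log2 depth, -0.0174 to -0.0127 for the percentage of uncalled reads, 2210 to 2255 missense SNPs with AI, and 0.188 to 2.37 percentage points for the untested difference in the percentage with AI. The last was 1.93 with all animals and fell by more than 1.5 times without RS937 (0.188), RS930 (0.440), RS910 (0.881), RS929 (1.01), RS953 (1.07), RS903 (1.23) or RS919 (1.23). Without SNPs heterozygous in 15 or more animals the share difference was 0.000240 and departure reversed to -0.000295. Without SNPs within 50 bp of another the differences were 0.00102 for share, 0.00139 for departure and -0.00759 for uncalled reads, none past the threshold. Share weighted by reads differed by 0.000783, and with at least 30 reads of each allele uncalled reads differed by -0.0135, both no longer past it. Matching on gene alone reversed the difference in uncalled reads to 0.138. Partners of identical genotype gave -0.480 points for the percentage with AI. Chosen after seeing the data, SNPs heterozygous in 15 or more animals gave 0.0404 for uncalled reads (reversed, from 2 to 17 SNPs in each animal) and 4.43 points for AI. The count of missense SNPs with AI was 1054 of the 1838 with 30 reads of each allele in 5 animals, fewer because fewer were tested, and 1367 with the adjusted quasi-binomial test, also added after seeing the data. The cause of the other changes was not tested. No paired analysis was possible because there is a single group.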

Other observations

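The percentage of missense SNPs with AI differed among kinds of base change. Of the missense SNPs, 30 of 101 A to T, 85 of 316 C to G and 80 of 302 G to C changes were called heterozygous in all 18 animals, compared with 42 of 898 C to T changes. AI was found at 52%, 58.3% and 57.3% of the A to T, C to G and G to C SNPs and at 42.9% of the C to T SNPs. The other changes that are not transitions ranged from 41.6% for T to G to 52.3% for G to T. T to A, the form of A to T on the other strand, stood at 46.5%, with 15 of 101 heterozygous in all 18 animals. Missense SNPs from A to G, the class that editing of a transcript would give on the forward strand, showed AI at 47.2%, and those from T to C at 44.3%.

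In 49 genes, 57 missense SNPs had no heterozygous animal, and 54 of them were called homozygous for the alternate allele in all 18 animals. The lesser allele held a median of 6.04% of reads at these SNPs, with a highest value of 38.1%. Only 14 of the 57 were transitions. Another 29 missense SNPs were heterozygous in 1 to 4 animals, and at 28 of these the uncalled allele held more than 2% of reads in homozygous animals.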
